A study of Mus musculus with 12 samples.

Results

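The proteasome is the barrel-shaped protease that degrades most ubiquitin-tagged proteins. Its core is built from alpha-ring and beta-ring subunits and carries the catalytic sites of Psmb5, Psmb6 and Psmb7, which the inducible subunits Psmb8, Psmb9 and Psmb10 can replace to give the immunoproteasome that shapes peptides for MHC class I. A cap of ATPase (Psmc) and non-ATPase (Psmd) subunits recognises and unfolds substrates, 11S activators and PA200 (Psme) open the core in other ways, and Psmg proteins assemble it. The genes described here are the protein-coding genes of the GRCm38 annotation whose symbols match Psm followed by a letter from a to g and a number. Of 50 such genes, 49 had at least 1 count among the 48709 genes of the table, and Psma8, a testis-specific alpha subunit, had none. The 49 divide into 7 alpha-ring genes, 8 beta-ring genes, 3 immunoproteasome genes, 6 ATPase and 14 non-ATPase cap genes, 6 activator and inhibitor genes, 4 assembly chaperones and Psmc3ip, a meiotic recombination factor that is named for binding Psmc3 and is not a subunit.

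Neutrophils were sorted as Ly6G-high, Ly6C-intermediate, CD11b+ and CD45+ cells from C57BL/6N male mice of 8 to 10 weeks. Control splenic neutrophils came from untreated mice (3 samples), and liver neutrophils from mice given 1 intraperitoneal injection of carbon tetrachloride in corn oil (1 mL per kg), a toxin that injures hepatocytes: 4 samples at 24 hours, during necroinflammation, and 5 at 72 hours, during early repair. The livers were digested with enzymes and the spleens were dissociated mechanically, and both were enriched with anti-Ly6G beads. Organ, tissue preparation and injury therefore change together against the spleen and cannot be told apart. No corn oil is stated for the untreated mice, and the 3 spleen libraries serve as the control of both liver groups. The labels number the replicates without saying that each was a separate animal, so p-values measure the spread between these samples.

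The libraries held between 1267089 and 3017403 counts on genes, which is 2.71% to 3.18% of their uniquely aligned reads. All 9 neutrophil markers were present in each group, with summed levels of 1900 to 7360 normalized CPM (CPM, counts scaled to the TMM-adjusted library size) in the spleen, 1170 to 2770 at 24 hours and 2120 to 2800 at 72 hours. Of 8 genes of immature neutrophils, Elane and Mpo were at 0 in the spleen. The summed level was 4170, 4030 and 607 there against 35.4 to 160 at 24 hours and 34 to 60.3 at 72 hours. Most spleen counts were of Ngp and Ltf, with 10358 and 8854 over the spleen libraries. At 24 hours they had 183 and 13 counts, and at 72 hours 93 and 62. Prtn3 went the other way, with 12, 30 and 20 counts in the same order of groups. The summed level thus moved with the organ, and the part of maturation in the results below was not tested. Hepatocyte markers (8 genes) summed to 2.32 to 6.11 in the spleen, 14.9 to 19.8 at 24 hours and 3.24 to 25.7 at 72 hours, with Ttr at 0 in every group. At 24 hours nearly all of it came from Apoa2, with 103 counts. Alb, Fgb and Cyp2e1 had 4, 3 and 1, and Apoa1, Serpina1a and Apob had 0. Macrophage markers (8 genes) summed to 17.4 to 43.4, 13.8 to 31.8 and 11.8 to 24.4, with Clec4f and C1qa at 0. B-cell markers (6 genes) summed to 52.9 to 68.8, 29 to 70.8 and 27.3 to 54.9, nearly all of it from Cd79a and Cr2. Dendritic-cell markers (5 genes, most counts on Clec9a) summed to 37.1 to 105, 10.7 to 50.3 and 41.5 to 80.6, with Siglech at 0 in both liver groups, so their lowest level was also at 24 hours, and their part in the results was not tested. Replicates 2 and 3 of the 72-hour group had 1.91% and 1.98% unaligned reads against 49.6% to 50.7% in the other libraries. In such bulk RNA, fewer cells of a type and less RNA per cell cannot be told apart.

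Proteasome genes had low counts. Their totals over the 12 libraries ran from 2 to 4442 counts, 33 of the 49 had a median count under 10, and 26 had at least 1 count in every library. The filter of more than 1 CPM in at least 3 libraries kept 42 of them and 12488 of all genes. The 7 left out, the beta-ring genes Psmb2 and Psmb11, the cap chaperone Psmd9 and the 4 assembly chaperones, had at most 12 counts in total. A gene can pass that filter through the group where it is high, so the counts and medians over tested members below are descriptions only. In the 24-hour libraries 14 members had 3 counts or fewer in every library, the level treated here as the floor, against 7 in the spleen and 7 at 72 hours.

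Genes on the opposite strand matter for reading these counts. Exon bases shared with an opposite-strand gene make up 2.83% of the exon length of the members, but the 12 members that share any hold 69.9% of all member counts, and 4 of the 5 members with the highest totals are among them. The 20 genes at the top of the whole table by count share exon bases in this way too, as do 39.8% of the genes tested. The library kit keeps strand, and the strand setting of the counter is not given in the sources used here. Which of the 2 genes the reads of such a pair come from is therefore not known. Reads set aside as fitting more than 1 gene were 0.0197% to 0.227% of uniquely aligned reads (median 0.0262%). The same doubt bears on the whole table. S100a8 and S100a9, among the most abundant mRNAs of neutrophils, had 82 to 3784 and 295 to 10950 counts per library. Reads on no gene were 96.79% to 97.27% of uniquely aligned reads. Whether reads were counted on the intended strand was not tested. If they were not, the counts of every member, with or without an opposite-strand exon, would be reads from the strand opposite to its mRNA. The sharing members are Psma4, Psma5, Psmb7, Psmb8, Psmb9, Psmc3, Psmd1, Psmd3, Psmd9, Psmd13, Psme1 and Psmc3ip. Tested members that share bases had a median total of 336 counts and those that share none had 87.

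A call needed an adjusted p under 0.05 in edgeR's quasi-likelihood test (Benjamini-Hochberg over 12488 genes) and a log2 fold change of 0.5 or more in either direction. At 24 hours against the spleen 3 of the 42 tested members were called, while 9.75% of all tested genes were. Psmb7 was called higher, as were 5.35% of all genes, and Psma7 and Psmd4 were called lower, as were 4.40%. At 72 hours against the spleen Psmb7 was the 1 member called, with 5.33% of all genes called, 2.63% higher and 2.71% lower. Between 72 and 24 hours Psmd4 and Psme1 were called higher, with 4.49% of all genes called, 1.65% higher and 2.84% lower. Member counts of calls are thus near or under the background in all 3 comparisons. Without both 72-hour libraries of few unaligned reads, the numbers called were 3, 0 and 1.

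The direction of the fitted changes is a second description. At 24 hours 37 of the 42 tested members had a log2 fold change below 0, with a median of -1.11, or -0.82 with genes at the floor set to their bound. Of all genes tested, 58.7% were below 0, with a median of -0.23. Among the 31 tested members that share no exon bases, 31 were below 0 (median -1.11), whereas 6 of the 11 that do were (median -0.34). For all genes the shares below 0 were 62.7% without and 52.8% with an opposite-strand exon. Under DESeq2 size factors and upper-quartile scaling the counts at 24 hours were also 37 of 42 and 31 of 31, and relative to the median of all genes they were 34 of 42 and 28 of 31. At 24 hours 10 of the 42 had every liver library below every spleen library, against 13.0% of all genes, and 1 had every one above, against 9.76%.

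At 72 hours the members were closer to the spleen. Of the 42, 26 lay below 0, with a median of -0.29, beside 51.3% and -0.02 for all genes. Between 72 and 24 hours 7 of the 42 lay below 0, with a median of 0.45, beside 40.9% and 0.18 for all genes. Libraries did not overlap between 72 hours and the spleen for 5 members, 1 above and 4 below (all genes, 5.59% and 6.37%). Between the liver groups they did not overlap for 4, 3 above and 1 below (4.49% and 5.02%). The plot of fold changes by class shows these directions gene by gene.

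**Figure D1:**
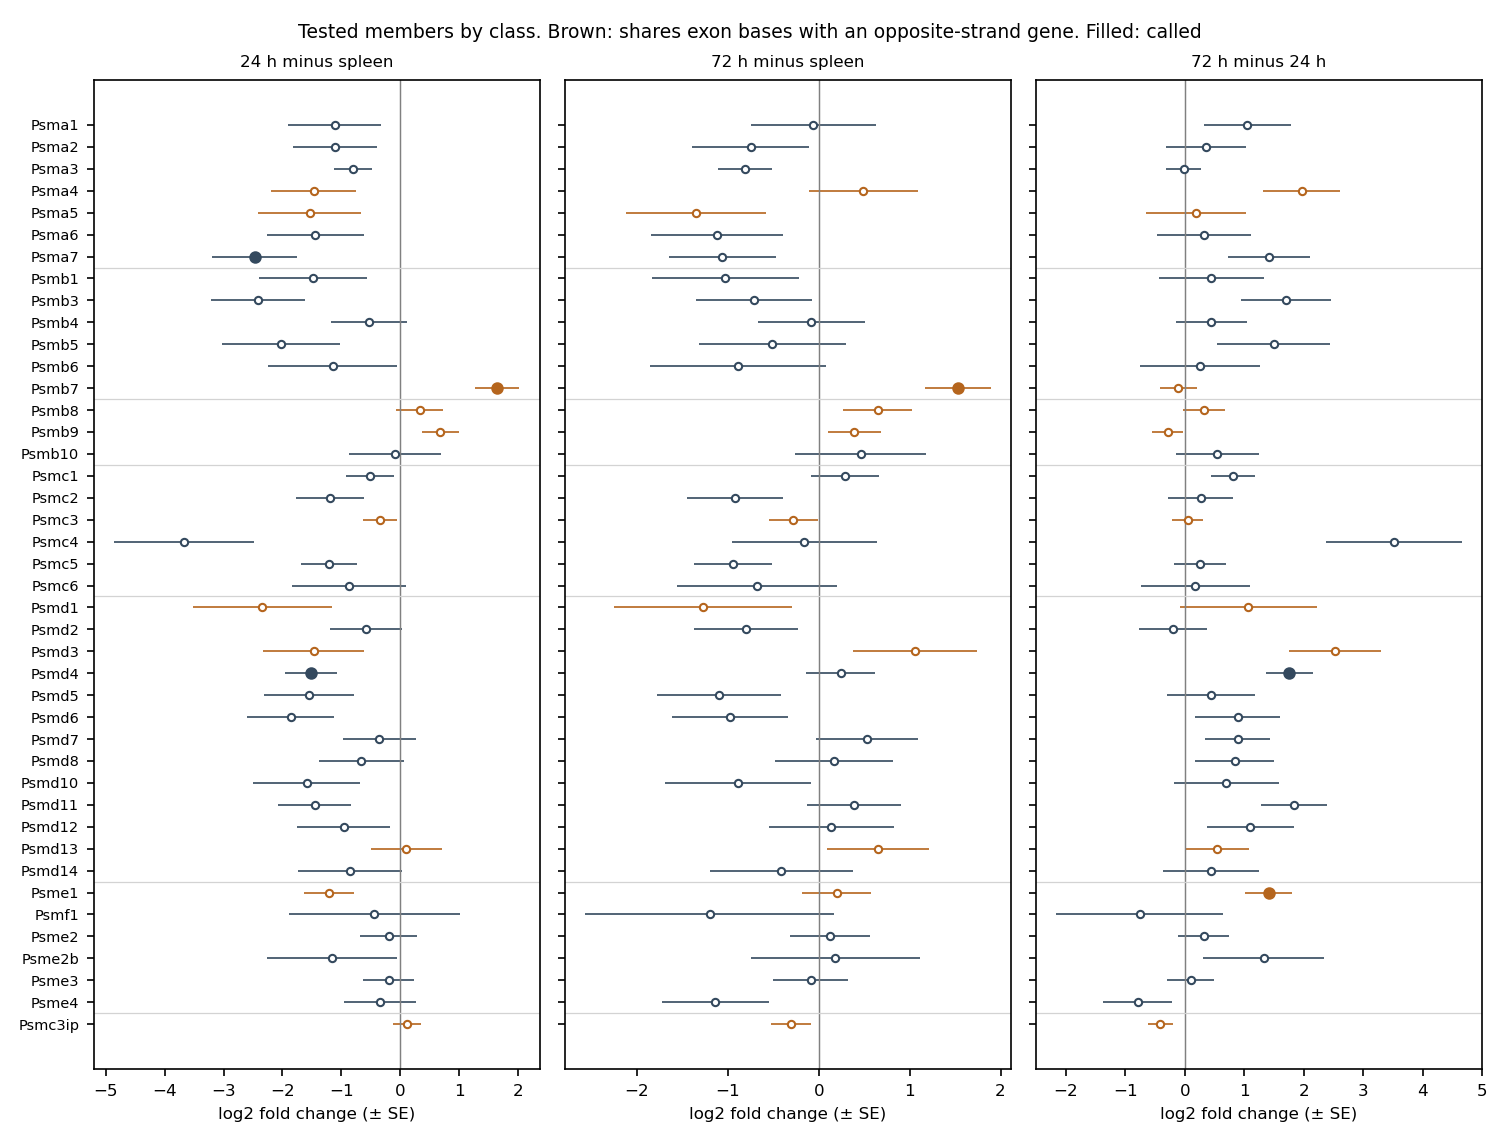
Log2 fold change of each of the 42 tested members (x axis; bars, standard error of the edgeR fit) in the 3 comparisons, ordered by class. Filled points are the called members (Psmb7, Psma7 and Psmd4 at 24 hours, Psmb7 at 72 hours, Psmd4 and Psme1 between the liver groups), and brown points share exon bases with an opposite-strand gene.

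The summed level of members that share no exon bases separated the 3 groups. These 37 genes summed to 231, 284 and 199 normalized CPM in control splenic neutrophils. In 24-hour neutrophils the sum was 127, 140, 95.5 and 139. In 72-hour neutrophils it was 184, 165, 176, 174 and 176, between the other groups and overlapping neither. The counts behind these sums were 498 to 783, 135 to 233 and 251 to 568. Summed over all genes without opposite-strand exons, tested or not, the level was 133500 to 150800 normalized CPM over the 12 libraries. Such a total does not show shifts of single genes. At 24 hours 62.7% of those tested had a log2 fold change below 0 against the spleen, with a median of -0.34. Per 1000 counts on all these genes the members held 1.35 to 2.04 in the spleen. They held 0.715 to 0.991 at 24 hours and 1.1 to 1.32 at 72 hours. Without Psma3, the most abundant of them, the spleen range (126 to 220) met the 72-hour range (127 to 153), while the 24-hour range (60.8 to 109) stayed below both. The 11 subunit genes that share exon bases gave 212 to 219 in the spleen, 159 to 301 at 24 hours and 229 to 295 at 72 hours. For these the 72-hour libraries all lay above the spleen libraries, and the 24-hour range overlapped both. All of these sums share the doubt about the counted strand. Spleen replicate 3 had the lowest spleen sum, 199, and the lowest immature-neutrophil markers of the spleen libraries, 607 normalized CPM. Both values lay above those of every liver library, and a link between them was not tested.

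**Figure D2:**
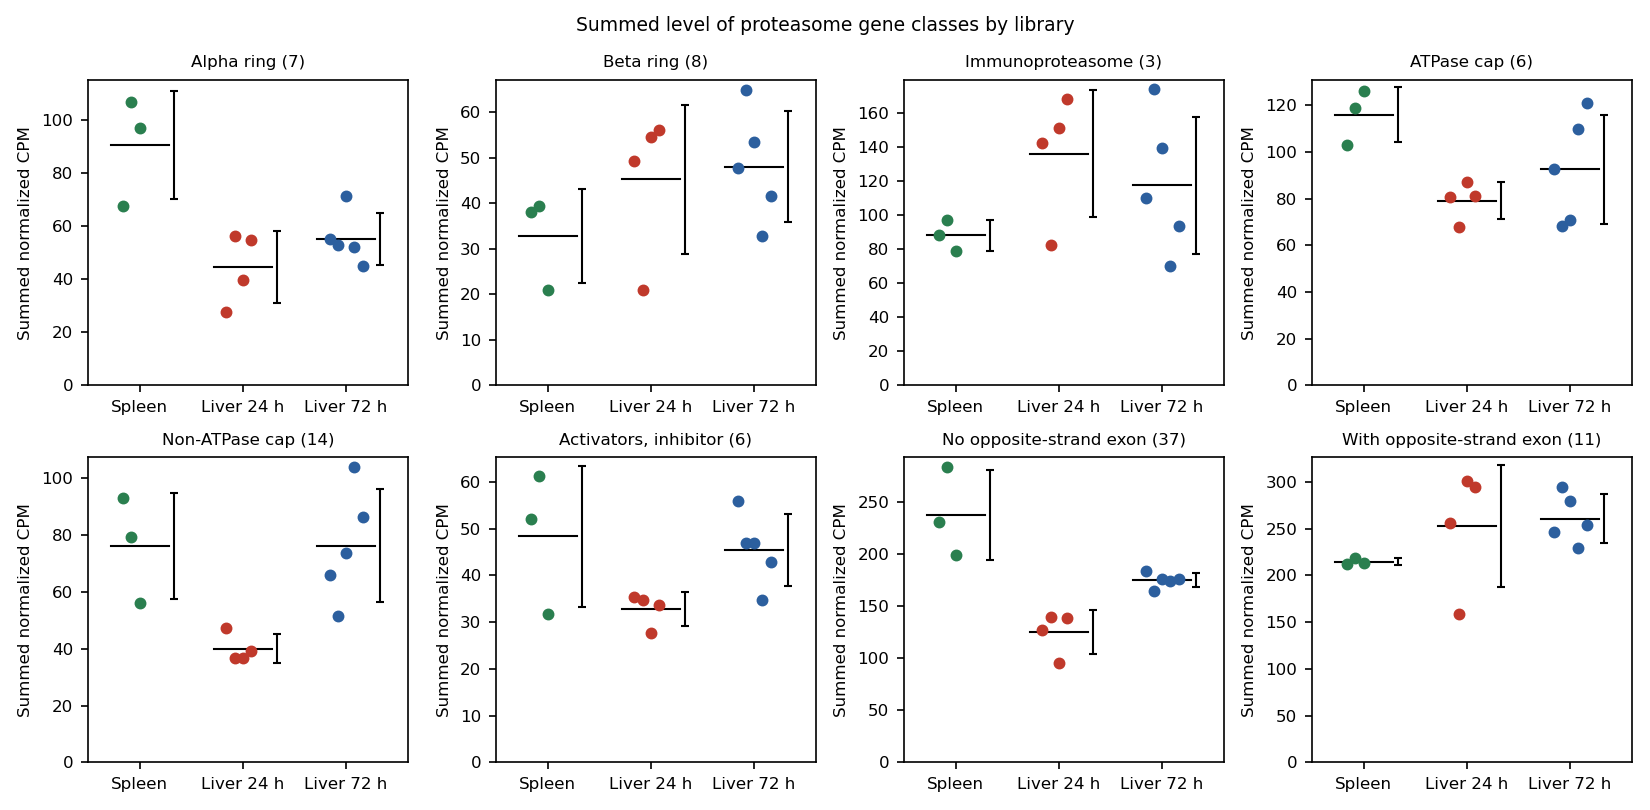
Summed normalized CPM of each class in every library (points), with the group mean (line) and SD (bar); the number of genes is in each title. The 37 genes without an opposite-strand exon sit at 199 to 284 in spleen, 95.5 to 140 at 24 hours and 165 to 184 at 72 hours, whereas the 11 with one sit at 212 to 219, 159 to 301 and 229 to 295, with 24 hours overlapping both other groups.

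The alpha ring, the gate through which substrates enter, had a fitted value below 0 in each of its 7 genes at 24 hours. Of all genes tested, 58.7% were below 0. In the ring 1 gene was called lower, as were 4.40% of all genes, and 6 did not pass the test. The median log2 fold change of the 7 was -1.44. The summed level was 67.7 to 107 normalized CPM in the spleen and 27.8 to 56.4 at 24 hours, with no overlap, and 44.8 to 71.5 at 72 hours. Of the mean sums of 90.6, 44.6 and 55.3, Psma3 held 57.3, 33.1 and 32.6. At 72 hours none of the 7 was called by edgeR, and 1 had an unadjusted p under 0.05, as had 17.1% of all genes (median of the 7, -0.81).

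Psma7, an alpha-ring subunit (chr2:180036374-180042433, minus strand), was the alpha gene called. It had 21, 21 and 16 counts in the spleen libraries, 1, 6, 0 and 1 at 24 hours, and 6, 12, 13, 5 and 4 at 72 hours. In normalized CPM these were 9.74, 7.61 and 5.14, then 0.631, 3.6, 0 and 0.729, then 3.25, 4.15, 4.02, 3.47 and 2.6. Every liver library lay below every spleen library at both times, and 24-hour replicate 2 overlapped the 72-hour group. The log2 fold change was -2.47 (SE 0.72, edgeR adjusted p = 0.0311) at 24 hours and -1.06 (SE 0.59, edgeR adjusted p = 0.391) at 72 hours. At 24 hours Psma7 no longer passed without spleen replicate 1 (edgeR adjusted p = 0.123) or 2 (0.0894) and without 24-hour replicate 1 (0.0748), 3 (0.0664) or 4 (0.0759). No exon bases are shared, and the nearest opposite-strand gene, Ss18l1, lies 76 bases away.

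Psma3, the alpha subunit with the most counts (1041), had 75, 177 and 227 counts in the spleen, 28, 64, 49 and 57 at 24 hours and 65, 109, 105, 50 and 35 at 72 hours. The normalized levels were 57.3 ± 20 (SD, n = 3), 33.1 ± 10.7 (n = 4) and 32.6 ± 5.81 (n = 5) CPM. Spleen replicate 1, at 34.8, lay within the range of both liver groups. The log2 fold changes of -0.80 (SE 0.32, edgeR adjusted p = 0.12) and -0.81 (SE 0.30, edgeR adjusted p = 0.138) did not pass the test. Its gene body, though not its exons, overlaps the opposite-strand gene 3110056K07Rik.

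The beta ring holds the proteolytic sites, and the fitted values of its 3 standard catalytic genes were of both signs. Psmb5, the chymotrypsin-like subunit, had 8, 12 and 9 counts in the spleen, 0, 0, 0 and 5 at 24 hours, and 7, 12, 4, 2 and 3 at 72 hours. At 24 hours its log2 fold change was -2.02 (SE 1, edgeR adjusted p = 0.203), and without 24-hour replicate 4, the 1 library with counts, it was -5.99, a value that depends on the prior count (edgeR adjusted p = 0.0171). Psmb6, the caspase-like subunit, had 5, 13 and 3 counts, then 2, 1, 4 and 0, then 1, 12, 5, 0 and 0. A difference in Psmb6 was not detectable at these counts (24 hours, -1.15, SE 1.09, edgeR adjusted p = 0.539).

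Psmb7, the trypsin-like subunit (chr2:38588036-38644087, minus strand), was the 1 member called higher against the spleen. It had 21, 42 and 33 counts in the spleen, 70, 28, 63 and 60 at 24 hours, and 61, 137, 129, 32 and 44 at 72 hours. The normalized levels were 9.74, 15.2 and 10.6 CPM in the spleen, 44.1, 16.8, 44.6 and 43.8 at 24 hours, and 33.1, 47.3, 39.9, 22.2 and 28.6 at 72 hours. All 9 liver libraries lay above the 3 spleen libraries, with 24-hour replicate 2 just above them. The log2 fold change was 1.64 (SE 0.38, edgeR adjusted p = 0.00742) at 24 hours and 1.53 (SE 0.36, edgeR adjusted p = 0.0119) at 72 hours, and the liver groups differed by -0.11 (SE 0.31). The 24-hour call held in each of the 12 fits that left out 1 library. At 72 hours Psmb7 did not pass without spleen replicate 1 (edgeR adjusted p = 0.0855) or without both 72-hour libraries of few unaligned reads (1.23, edgeR adjusted p = 0.127).

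Psmb7 shares 405 bases, 11.8% of its exon length, with Nek6, a kinase gene on the plus strand. Nek6 had 720 to 1364 counts per library against 21 to 137 for Psmb7. Its normalized level was 398, 422 and 378 CPM in the spleen, 718, 779, 965 and 767 at 24 hours, and 390, 360, 339, 571 and 645 at 72 hours. Nek6 was higher at 24 hours (1.02, edgeR adjusted p = 0.00876) and not called at 72 hours (0.21, edgeR adjusted p = 0.742). In 72-hour replicates 4 and 5 Nek6 (571 and 645) lay above every spleen library, and in the others (390, 360 and 339) it did not. Psmb7 was called at both times. In 24-hour replicate 2 Psmb7 was at 16.8 and Nek6 at 779 normalized CPM. How many reads of Psmb7 belong to Nek6 was not tested.

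**Figure D3:**
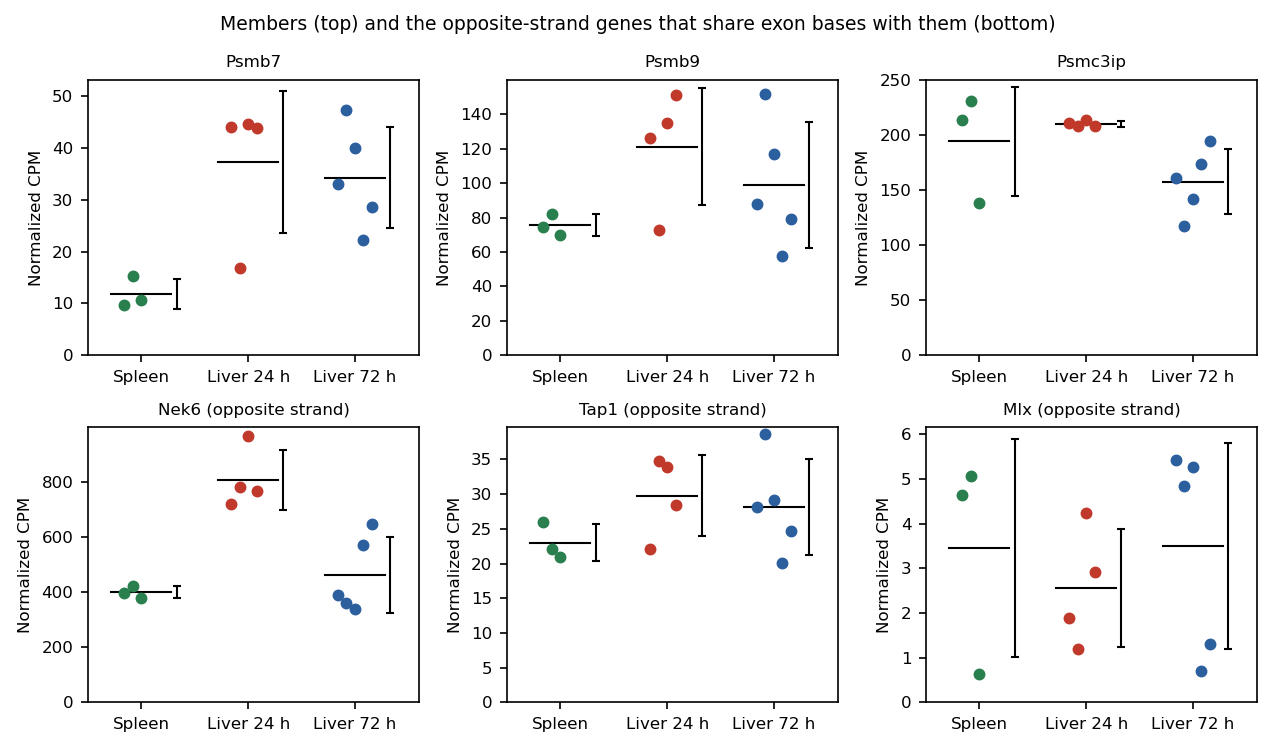
Normalized CPM per library (points), group mean (line) and SD (bar) of Psmb7, Psmb9 and Psmc3ip (top) and of the opposite-strand genes Nek6, Tap1 and Mlx (bottom), with a separate y axis for each panel. Nek6 lies at 718 or more in the 24-hour libraries alone, and at 571 and 645 in 72-hour replicates 4 and 5. Psmb7 is above the spleen at both times.

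The other tested beta genes had fitted values below 0 at 24 hours, as had 58.7% of all genes. Of the 6 tested beta genes 1, Psmb7, was called higher, as were 5.35% of all genes. Psmb3, a structural subunit named here after its values were seen, had 22, 13 and 6 counts in the spleen and 1, 3, 1 and 1 at 24 hours, so that its 24-hour group is at the floor (edgeR adjusted p = 0.0565). Summed, the 8 beta genes gave 20.9 to 39.5 normalized CPM in the spleen, 21.0 to 56.2 at 24 hours and 32.7 to 64.9 at 72 hours. Of the mean sums of 32.8, 45.2 and 48.1, Psmb7, which has an opposite-strand exon, held 11.9, 37.3 and 34.2. Psmb5 and Psmb6 together gave 3.86 to 9.06, 0.6 to 3.65 and 1.39 to 8.29, with the 24-hour libraries below the spleen.

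The immunoproteasome subunits had fitted values near or above 0 against the spleen, and none was called by edgeR in any comparison. At an unadjusted p under 0.05 there was 1, Psmb9 at 24 hours, where 26.2% of all genes were under it. The median log2 fold change of the 3 subunits was 0.33 at 24 hours and 0.46 at 72 hours, where all 3 were above 0. The summed level of the 3 genes was 78.8 to 96.8 normalized CPM in the spleen, 82.2 to 168 at 24 hours and 70.2 to 174 at 72 hours, and these ranges overlapped. Of the mean sums of 87.9, 136 and 117, Psmb9, which has an opposite-strand exon, held 75.6, 121 and 98.7.

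Psmb9, the inducible counterpart of Psmb6 (chr17:34181987-34187764, minus strand), was the subunit gene with the most counts, 2508. It had 161, 227 and 217 counts in the spleen, 199, 121, 191 and 207 at 24 hours, and 162, 439, 379, 83 and 122 at 72 hours. Normalized, these were 74.7, 82.3 and 69.8 CPM, then 126, 72.6, 135 and 151, then 87.8, 152, 117, 57.7 and 79.2. At 24 hours 3 of 4 libraries were above the spleen and replicate 2 lay within it, and at 72 hours replicate 4 lay below it. The log2 fold changes were 0.68 (SE 0.31, edgeR adjusted p = 0.164) and 0.39 (SE 0.29, edgeR adjusted p = 0.564), and the second was -0.01 without both 72-hour libraries of few unaligned reads. Psmb9 shares 212 bases (5.79% of its exon length) with Tap1, the peptide transporter gene beside it, which had 29 to 112 counts and log2 fold changes of 0.38 (edgeR adjusted p = 0.47) and 0.30 (edgeR adjusted p = 0.695).

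Psmb8, the counterpart of Psmb5, had 26, 32 and 20 counts in the spleen, 21, 14, 22 and 18 at 24 hours, and 28, 54, 67, 15 and 19 at 72 hours. Its log2 fold changes were 0.33 (SE 0.40, edgeR adjusted p = 0.646) and 0.65 (SE 0.38, edgeR adjusted p = 0.415). Psmb8 shares 498 bases, 14.7% of its exon length, with the antisense gene Gm20496, which had 1887 to 6486 counts and was higher at 24 hours (0.69, edgeR adjusted p = 0.047). Psmb10, the counterpart of Psmb7, shares no exon bases and had 3, 8 and 8 counts, then 5, 2, 1 and 5, then 13, 11, 4, 3 and 3. No change in Psmb10 was detectable at these counts (-0.09, SE 0.78, edgeR adjusted p = 0.958 at 24 hours).

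Per kilobase of exon, the order of the 6 catalytic genes was led by Psmb9 in every group. In the spleen the levels were 20.7 ± 1.72 normalized CPM per kb (SD, n = 3) for Psmb9, 4.06 ± 0.812 for Psmb5, 3.47 ± 0.861 for Psmb7 and 2.97 ± 0.925 for Psmb8. Psmb6 and Psmb10 followed at 1.42 ± 1.01 and 1.34 ± 0.465, and neighbours after Psmb9 lay within about 1 SD of each other except the step from Psmb8 to Psmb6. At 24 hours (n = 4) Psmb9 was at 33.1 ± 9.28, Psmb7 at 10.9 ± 4.0 and Psmb8 at 3.72 ± 0.889. Psmb10, Psmb5 and Psmb6 were at 1.28 ± 0.845, 1.01 ± 2.03 and 0.626 ± 0.651 and did not differ beyond their spread. At 72 hours (n = 5) Psmb9 was at 27.0 ± 9.98, Psmb7 at 10 ± 2.85, Psmb8 at 4.57 ± 1.27 and Psmb5 at 2.78 ± 1.52, with Psmb10 at 1.89 ± 1.37 and Psmb6 at 0.666 ± 0.929, and the last 3 lay within their spread of the next in order. The 3 highest of these per-length levels in the liver belong to genes with opposite-strand exons.

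**Figure D4:**
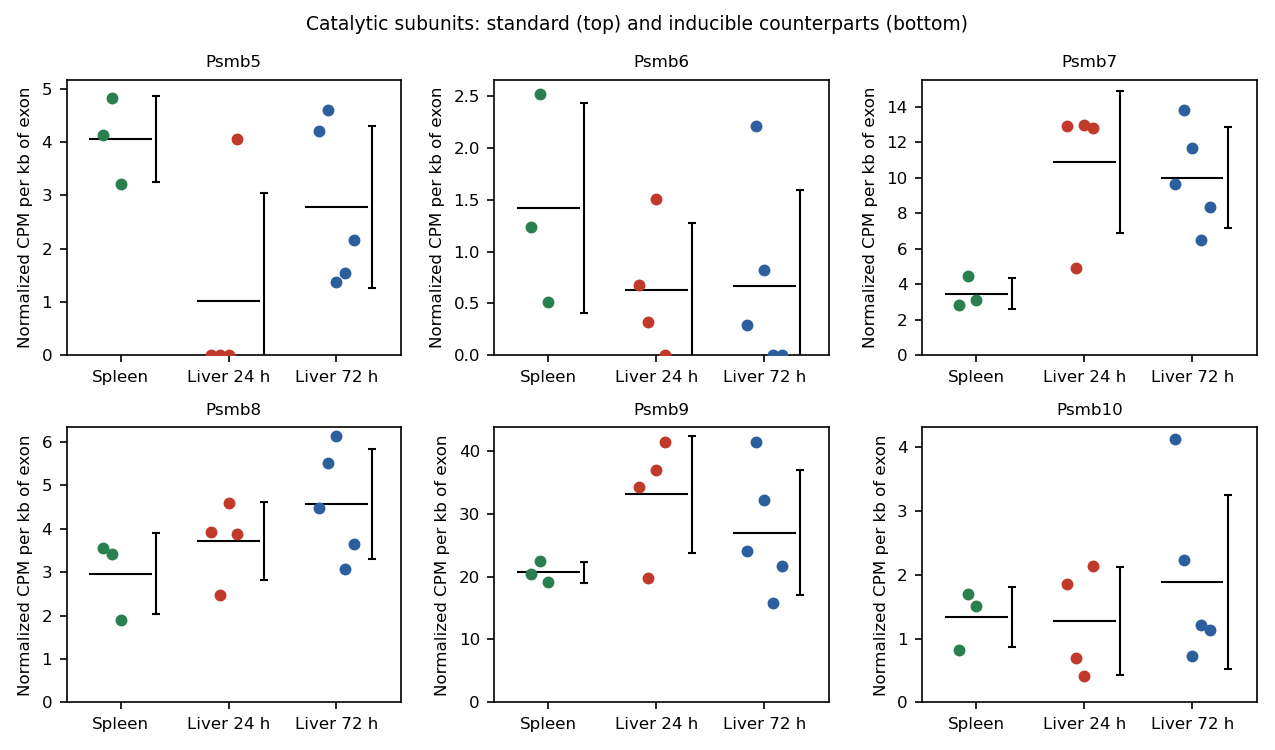
Normalized CPM per kb of exon for the standard catalytic subunits (top) and their inducible counterparts (bottom) in each library, with group mean (line) and SD (bar, cut off at 0 where it would go below); y axes differ between panels. Psmb9 is highest in every group, and 3 of 4 24-hour libraries have no Psmb5 count.

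In the cap 18 of 19 tested genes had a fitted value below 0 at 24 hours, against 58.7% of all genes. Of the 19, 1 was called, Psmd4, which was lower, as were 4.40% of all genes. The ATPases, which unfold substrates, had a median log2 fold change of -1.03 at 24 hours (-0.69 with floor genes at their bound) and -0.48 at 72 hours. Their summed level was 103 to 126 normalized CPM in the spleen, 67.8 to 87 at 24 hours, with no overlap, and 68.4 to 121 at 72 hours. Of the mean sums of 116, 79.1 and 92.4, Psmc3, which has an opposite-strand exon, held 74.8, 59.3 and 61.9. The non-ATPase genes had medians of -1.45 (-0.85 at the bound) and 0.14. They summed to 56.3 to 93.2 in the spleen, 36.6 to 47.3 at 24 hours and 51.5 to 104 at 72 hours, so the 24-hour libraries lay below both other groups.

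Among the ATPases, Psmc3 had the most counts, 142, 189 and 280 in the spleen, 87, 78, 105 and 84 at 24 hours, and 101, 125, 146, 123 and 125 at 72 hours. Its levels of 74.8 ± 13.3 (SD, n = 3), 59.3 ± 11.6 (n = 4) and 61.9 ± 20 (n = 5) normalized CPM overlapped (24 hours, -0.34, SE 0.29, edgeR adjusted p = 0.487). Psmc3 shares 215 bases with Slc39a13, which had 10 to 70 counts. Psmc5 had 30, 59 and 60 counts in the spleen, 19, 13, 4 and 12 at 24 hours, and 27, 31, 12, 15 and 13 at 72 hours. Its 24-hour libraries all lay below the spleen, and neither log2 fold change passed the test (-1.21, SE 0.47, edgeR adjusted p = 0.106, and -0.94, SE 0.43, edgeR adjusted p = 0.252). Psmc4, named after its values were seen, had 5, 10 and 8 counts in the spleen, 0, 0, 0 and 1 at 24 hours and 5, 2, 8, 1 and 10 at 72 hours. With its 24-hour group at the floor, its edgeR adjusted p was 0.0525 against the spleen and 0.0787 against 72 hours.

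Psmd4, the ubiquitin receptor of the cap also known as Rpn10 (chr3:95032694-95042614, minus strand), was lower at 24 hours than in both other groups. It had 26, 39 and 26 counts in the spleen, 4, 8, 6 and 6 at 24 hours, and 28, 32, 38, 28 and 17 at 72 hours. Normalized, these were 12.1, 14.1 and 8.36 CPM, then 2.52, 4.8, 4.24 and 4.38, then 15.2, 11.1, 11.8, 19.5 and 11. The 24-hour libraries did not overlap the spleen or the 72-hour libraries. The log2 fold change was -1.52 (SE 0.44, edgeR adjusted p = 0.0307) against the spleen and 1.76 (SE 0.40, edgeR adjusted p = 0.0163) from 24 to 72 hours, and 0.24 (SE 0.38, edgeR adjusted p = 0.846) at 72 hours against the spleen. Psmd4 shares no exon bases, and its nearest opposite-strand gene lies 12556 bases away.

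The Psmd4 call against the spleen was the less steady. It was lost without spleen replicate 1 (edgeR adjusted p = 0.0917) or 2 (0.133) and without 24-hour replicate 1 (0.0748) or 4 (0.0519), and also with limma-voom, without the filter, with the 2 groups alone and among genes without opposite-strand exons. The call between the liver groups was lost in 1 fit, without 24-hour replicate 1 (edgeR adjusted p = 0.0648).

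**Figure D5:**
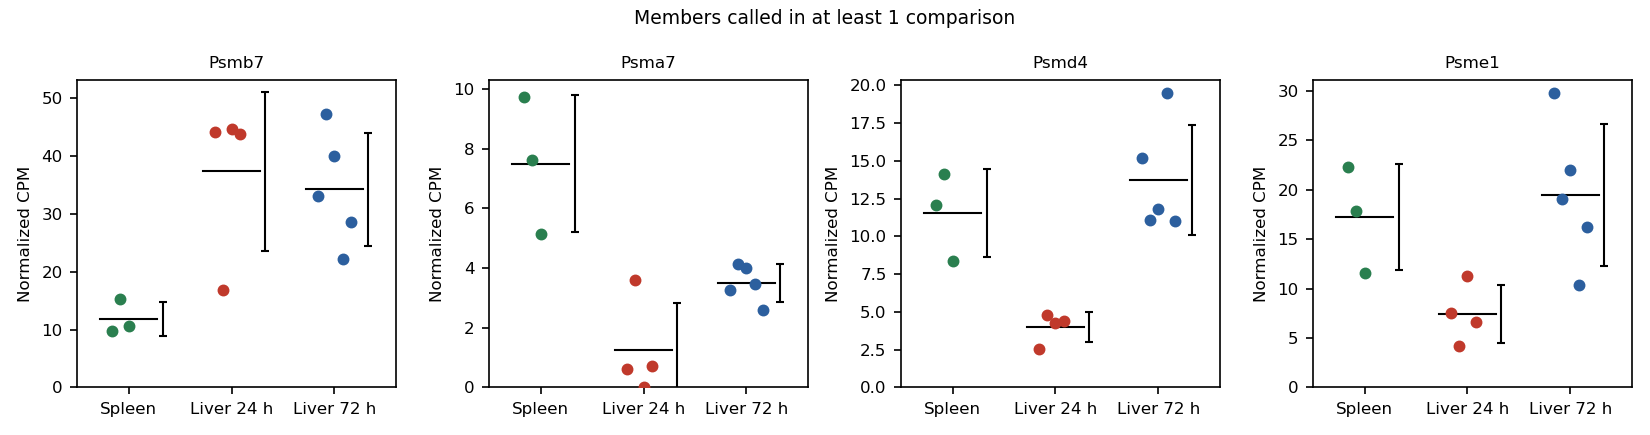
Normalized CPM of the 4 called members in each library (points), with group mean (line) and SD (bar, cut off at 0 for Psma7). The 4 Psmd4 values at 24 hours, 2.52 to 4.8, lie below those of both other groups, while Psme1 at 24 hours overlaps the 72-hour group.

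Lid genes of the cap are given next. Psmd13, the non-ATPase gene with the most counts, had 19, 20 and 41 in the spleen, 11, 10, 23 and 18 at 24 hours, and 14, 9, 32, 47 and 41 at 72 hours, and it shares 342 bases with Sirt3. Its groups overlapped (0.10, SE 0.60, edgeR adjusted p = 0.943 at 24 hours). Psmd3 had 9, 2 and 8 counts in the spleen, 1, 0, 2 and 2 at 24 hours, and 15, 16, 13, 7 and 5 at 72 hours. Every 72-hour library was above every 24-hour library, which are at the floor, with an edgeR adjusted p of 0.059. Psmd3 shares 17 bases with Gm12356.

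Activators and the inhibitor had median log2 fold changes of -0.40 at 24 hours and 0.01 at 72 hours. Of the 6, 1 was called in 1 comparison, Psme1, higher at 72 than at 24 hours, as were 1.65% of all genes. Psme1, the alpha subunit of the interferon-inducible 11S activator (chr14:55578123-55581529, plus strand), had 48, 49 and 36 counts in the spleen, 12, 7, 16 and 9 at 24 hours, and 55, 55, 71, 15 and 25 at 72 hours. Normalized, these were 22.3, 17.8 and 11.6 CPM, then 7.57, 4.2, 11.3 and 6.57, then 29.8, 19, 22, 10.4 and 16.2. The 24-hour libraries were all below the spleen, and 72-hour replicate 4 fell within the 24-hour range. The log2 fold change from 24 to 72 hours was 1.41 (SE 0.39, edgeR adjusted p = 0.0421), and that at 24 hours against the spleen was -1.21 (SE 0.43, edgeR adjusted p = 0.0752).

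Psme1 did not pass when any of 8 libraries was left out. These were spleen replicates 1 (edgeR adjusted p = 0.0511) and 2 (0.0564), 24-hour replicates 1 (0.0959), 2 (0.126) and 4 (0.0908), and 72-hour replicates 1 (0.108), 2 (0.0685) and 3 (0.0925). Without both 72-hour libraries of few unaligned reads it was 1.36 (edgeR adjusted p = 0.137). Nor did it pass with upper-quartile scaling (1.32, edgeR adjusted p = 0.0522) or with limma-voom, the test the study used (1.41, limma adjusted p = 0.0684). Psme1 shares 14 bases with Emc9. Its partner in the same ring, Psme2, was at 8.03 ± 3.38 (SD, n = 3), 6.93 ± 1.94 (n = 4) and 8.5 ± 2.98 (n = 5) normalized CPM, which overlapped, as did Psme3, the nuclear activator, at 12.3 ± 5.17, 10.8 ± 4.01 and 11.8 ± 3.89. Psme2 has a near-identical copy, Psme2b, so its reads can be divided between them.

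The 4 assembly chaperones were at the edge of detection. Psmg1 had 2 counts in spleen replicate 3, 2 and 1 in 72-hour replicates 1 and 5, and 0 in the other libraries. Each chaperone had 3 counts or fewer in every library, and the highest total was 5, so no difference was detectable at these counts.

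Psmc3ip carried the most counts of any gene matched by name, 4442. It had 461, 637 and 429 counts in the spleen, 334, 346, 303 and 285 at 24 hours, and 297, 338, 460, 251 and 301 at 72 hours. Levels were 194 ± 49.5 (SD, n = 3), 210 ± 3.11 (n = 4) and 158 ± 30.1 (n = 5) normalized CPM, and it was not called (24 hours, 0.11, SE 0.24, edgeR adjusted p = 0.801). Psmc3ip shares 385 bases, 21.2% of its exon length, with Mlx, which had 1 to 17 counts per library in this table.

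Genes that work with the proteasome were read against the same backgrounds. Of 21 tested partner genes (shuttle factors, deubiquitinases, assembly and stress factors) none was called higher and 1 lower at 24 hours, where 5.35% and 4.40% of all genes were. That was Txnl1, a thioredoxin-like protein of the cap, with 0 to 11 counts and none in the 24-hour libraries (edgeR adjusted p = 0.023). At 72 hours 1 was called higher (2.63% of all genes), Zfand2a, an arsenite-inducible proteasome-associated factor, at a mean of 7.44 against 1.67 normalized CPM (2.17, SE 0.62, edgeR adjusted p = 0.0406). From 24 to 72 hours none of the 21 was called, against 4.49% of all genes. None of the 6 ubiquitin and E1 genes was called by edgeR in any comparison.

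Among 17 antigen-processing genes 1 was called lower at 24 hours (4.40% of all genes), Tapbpl, a peptide editor of MHC class I (-1.74, SE 0.46, edgeR adjusted p = 0.018), and none was called at 72 hours against the spleen. From 24 to 72 hours 1 of the 17 was called higher, as were 1.65% of all genes. This was B2m, the light chain of MHC class I, with means of 38.1 and 85.4 normalized CPM (1.17, SE 0.27, edgeR adjusted p = 0.0181). Tap1 and Tap2, which neighbour Psmb8 and Psmb9 in the MHC region, had log2 fold changes of 0.38 and -0.13 at 24 hours and were not called. The medians of the 3 lists at 24 hours were -0.30, -0.58 and -0.35, against -0.23 for all genes.

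Promoter sequence was read for the members with an entry in RefSeq (GRCm38.p6), which were 42 of the 49. The entries not found were those of Psmb1, Psmb2, Psmb7, Psmc3, Psmd3, Psmd7 and Psmg2. In the 250 bases before the start, on either strand, an ETS-like CCGGAAG occurred in 13 of the 42 (31.0%) against 6.9% of 32851 promoters, and is in capitals in the Psmd4 sequence below. The antioxidant element TGACNNNGC, through which Nrf1 and Nrf2 are known to raise proteasome genes, occurred in 5 (11.9%) against 10.2%, among them Psmb5 and Psmb6, and an interferon response-like pair of GAAA repeats set 2 bases apart in 3 (7.1%) against 3.0%, among them Psmd4 and Psmb3. A gamma-activated TTCNNNGAA occurred in 2 (4.8% against 7.0%), CCAAT in 15 (35.7% against 33.8%), a kB-like GGG and CC set 5 bases apart in 23 (54.8% against 45.8%), the cyclic AMP element TGACGTCA in 0 (against 1.5%) and the nuclear respiratory factor palindrome in 1 (2.4% against 0.8%). The antioxidant and cyclic AMP elements begin with the same letters and can overlap.

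Psmd4 and Psmb7 were each called in 2 comparisons, and Psmb7 had no promoter entry. The sequences shown are those of Psmd4, of Psmb3, which shares its interferon-like motif, and of the catalytic genes Psmb5 and Psmb6. All are written 5′ to 3′ on the strand of the gene. They cover the 250 bases before the start for Psmd4 and Psmb3 and the last 120 for Psmb5 and Psmb6, in each case without annotated exon bases, and capitals mark the ETS-like, interferon-like and antioxidant motifs in either orientation. Psmd4 is chr3:95042615-95042864 (minus strand), Psmb3 chr11:97703184-97703398 (plus), Psmb5 chr14:54618023-54618115 (minus) and Psmb6 chr11:70525237-70525356 (plus). A match describes the letters and not a bound site.
Psmd4: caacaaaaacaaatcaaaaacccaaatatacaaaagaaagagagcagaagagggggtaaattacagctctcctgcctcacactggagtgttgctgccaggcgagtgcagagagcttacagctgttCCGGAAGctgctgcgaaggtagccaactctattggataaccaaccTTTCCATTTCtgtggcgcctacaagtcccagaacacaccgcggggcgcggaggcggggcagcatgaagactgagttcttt
Psmb3: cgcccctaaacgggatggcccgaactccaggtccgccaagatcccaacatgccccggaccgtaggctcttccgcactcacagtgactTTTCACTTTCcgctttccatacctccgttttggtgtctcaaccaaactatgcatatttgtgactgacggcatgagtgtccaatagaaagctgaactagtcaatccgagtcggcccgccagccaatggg
Psmb5: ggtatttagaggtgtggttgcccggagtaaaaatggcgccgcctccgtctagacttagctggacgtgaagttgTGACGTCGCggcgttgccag
Psmb6: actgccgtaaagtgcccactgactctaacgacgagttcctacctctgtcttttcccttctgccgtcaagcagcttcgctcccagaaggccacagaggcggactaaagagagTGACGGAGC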

How the data were processed

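RNA of neutrophils from control spleen (n = 3 samples) and from liver 24 hours (n = 4) and 72 hours (n = 5) after carbon tetrachloride was sequenced with a strand-keeping kit. The authors aligned reads to GRCm38 (STAR 2.7.9a per the submitters' processing notes), counted them per gene with HTSeq-count 0.6.1p1 and deposited the raw counts in 1 table. The strand option is not given in the sources used here. Neither library sizes nor tests include the 5 summary rows, in which reads on no gene were 96.79% to 97.27% of uniquely aligned reads. With 1267089 to 3017403 counts on genes per library, 3 counts equal 0.929 to 2.19 normalized CPM. Standard errors and SDs come from the spread between libraries.

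Gene identifiers were matched to GENCODE annotation of GRCm38 (48349 matched), which gave strands and exon overlaps. In R 4.3.3, genes above 1 CPM in at least 3 libraries were tested with edgeR 4.0.16 (quasi-likelihood, TMM, 1 fit of all 12 libraries, Benjamini-Hochberg), with a call at adjusted p under 0.05 and log2 fold change of 0.5 or more in either direction. The standard error is the log2 fold change over the square root of F. The test was tried on simulated data. Alternatives were DESeq2 1.42.0, limma 3.58.1 with voom (the study's own test), other scalings, filters and fold limits, the 2 groups alone, a replicate block, genes without opposite-strand exons, and leaving out libraries.

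Counts of each library are given for the 6 catalytic genes, called members, the highest-count member of each class and the 3 members of smallest p per comparison. Partner genes are named if called, and Tap1 and Tap2 always. The members and lists were chosen with earlier results of these data known.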

Additional observations from a re-analysis of the deposited data

Results flagged for a closer look

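In 24-hour neutrophils replicate 4 had a Psmb5 level of 3.65 normalized CPM, and the other 3 libraries had 0. Replicate 2 of the same group had 16.8 for Psmb7 against 43.8 to 44.6 in the others, 17.4 for the sum of Psmb5, Psmb6 and Psmb7 against 45.4 to 47.4, and 9.6 for the sum of Psmb8 and Psmb10 against 16.3 to 16.8. Each of these 4 values, which come from 2 libraries, stood far from the rest of its group by Dixon's criterion. Of 59 groups of values looked at, 4 stood out in this way, and chance gives about 1 in 20. The Psmb7 value enters its sum, so those are not separate.

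The change against the spleen differed between the liver time points for Psmd4, by 1.76 on the log2 scale (edgeR adjusted p = 0.0163, all 5 of the 72-hour libraries above all 4 of the 24-hour libraries), and for Psme1, by 1.41 (edgeR adjusted p = 0.0421, groups overlapping).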

How the results depend on the processing

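The 3 members called at 24 hours became 1 with the 2 groups alone (Psmb7) and 1 among genes without opposite-strand exons (Psma7), and 1 to 5 when 1 library was left out (1 without spleen replicate 1 or 2 or 24-hour replicate 1, 5 without spleen replicate 3 or 72-hour replicate 4). The 1 member called at 72 hours, Psmb7, became 0 among genes without opposite-strand exons, where it is not tested, 0 without both 72-hour libraries of few unaligned reads, and 0 to 1 with 1 library left out (0 without spleen replicate 1). The 2 called between the liver groups became 1 with upper-quartile scaling (Psmd4), 5 with the DESeq2 Wald test (Psmc4, Psmd3, Psmd4, Psmd11 and Psme1), 1 among genes without opposite-strand exons, 1 without both 72-hour libraries of few unaligned reads, and 0 to 2 with 1 library left out (0 without 24-hour replicate 1). Apart from the smaller number of genes or libraries in some fits, the cause of these shifts was not tested. Over every result and alternative, 648 values kept their direction and side of the threshold or stayed within the spread, 28 lost a call, 6 gained one, 25 counts or medians moved and 11 fitted values changed sign.

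None of the fitted values that changed sign was called. Psmb10 at 24 hours was 0.03 among genes without opposite-strand exons and 0.10, 0.11 and 0.18 without spleen replicate 2 or 24-hour replicates 2 or 3, and -0.43 to 0.18 over all fits with 1 library left out. At 72 hours it was -0.02 without 72-hour replicate 1 (range -0.02 to 0.69). Psmb9 at 72 hours was -0.01 without both libraries of few unaligned reads. Between the liver groups Psmb6 was -0.20 with limma-voom, -2.20 without those libraries, -0.11 without 24-hour replicate 4 and -0.81 without 72-hour replicate 2 (range -0.81 to 1.07), and Psmb7 was 0.01 without 72-hour replicate 4 (range -0.36 to 0.01).

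With the replicate number as a block the members called were 3, 1 and 2. The numbers did not pair the samples: correlations of same-numbered deviations ran from -0.12 to 0.13 over 10 pairs, with 1 above 0.1. The main limits are the low counts, with 33 of 49 members at a median count under 10, the opposite-strand exons of 12 members, and the unstated strand option, which bears on what the counts of every member hold and was not tested.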
